A study of Homo sapiens with 6 samples.

Results

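The replication-dependent histone genes encode most of the core histones that package newly copied DNA. Here they are the entries of a deposited gene table whose description holds the words histone cluster or clustered histone, with pseudogenes left out. Of 38170 annotated features, 64 held those words, 9 of them were pseudogenes, and 55 genes remained. By type these were 14 H2A, 16 H2B, 13 H3 and 12 H4 genes. By position, 11 lay in the 1q21 cluster (chromosome 1, 149782689 to 149887965), 25 in the distal part of the 6p22 cluster (chromosome 6, 26020451 to 26285638) and 19 in its proximal part (27125897 to 27893891). The rule itself uses no measured value, although it was set with earlier results of these data known. The linker histone H1 genes of the same clusters carry another wording in their descriptions and so are no members.

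RNA was sequenced from A549, a human lung carcinoma cell line. In 3 libraries the cells carried an empty piggyBac vector, a transposon that inserts DNA into the genome, and in the other 3 they carried a piggyBac vector for LOC401312, a long non-coding RNA. Both groups share the cell line, the vector system and the culture in DMEM with fetal bovine serum, and the labels do not say whether a group is 1 clone, 1 pool or several cultures, so every p-value below measures only the spread between these libraries. The genotype field gives LOC401313 for LOC401312 replicate 2 and LOC401314 for LOC401312 replicate 3, although their titles read LOC401312. The STEAP1B entry, whose span on chromosome 7 holds LOC401312, had 9, 11 and 23 counts in vector and 94628, 92527 and 90297 counts in LOC401312.

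Replication-dependent histone messages are unusual in that most have no poly(A) tail and no intron. Their message ends in a short stem-loop, which the stem-loop binding protein SLBP holds, and the U7 small nuclear ribonucleoprotein directs the cut just downstream of it. Transcription is switched on as cells enter S phase, by NPAT under cyclin E with CDK2, and the messages are degraded when replication stops. Some copies, H2AC6, H2BC5, H2BC12 and H2BC21 among them, are known to give polyadenylated messages as well, by reading past the stem-loop to a later end. The gene copies are numerous, similar in coding sequence within a type, and often arranged as H2A and H2B pairs that start back to back.

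The stem-loop is the element that defines the family's RNA, so its letters are shown for some copies of each type in which it was found. Most are among the higher copies of their type, but not all of the highest are shown. H2BC12, the highest copy, had no match, and H4C8 is a lower copy with another loop. It was searched in the GENCODE 29 transcripts of the 53 members that release holds, as a stem of 6 base pairs that starts with GG and a loop of 4 bases that starts with TT. Each line gives 26 bases of the transcript, 5′ to 3′, with T for U, and the capitals mark the 16 bases of stem and loop.

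H2AC6: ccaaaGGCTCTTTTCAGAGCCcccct
H2AC18: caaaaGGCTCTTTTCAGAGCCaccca
H2BC5: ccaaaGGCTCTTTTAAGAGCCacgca
H2BC21: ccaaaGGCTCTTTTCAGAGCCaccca
H3C10: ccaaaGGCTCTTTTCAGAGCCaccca
H4C15: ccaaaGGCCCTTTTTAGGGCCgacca
H4C9: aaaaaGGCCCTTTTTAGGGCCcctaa
H4C8: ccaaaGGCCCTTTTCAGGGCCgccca

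A stem-loop was found in 26 of the 53 members, in 4 versions. The version of H2AC6, H2AC18, H2BC21 and H3C10, with the loop TTTC, was held by 15 members, and that of H2BC5, with the loop TTTA, by 4. The stem separated the types: it began GGCTC in every H2A, H2B and H3 gene with the element and GGCCC in all 7 H4 genes with it. Of these H4 genes, 4 had the loop TTTC, as in H4C8, and 3 had TTTT (H4C9, H4C14 and H4C15). The element stood within the last 300 bases of 14 of the members' 64 annotated coding transcripts (21.9%). Of the 83065 coding transcripts of all other genes, 21 held it there (0.0253%). The annotated end varied between copies. Among transcripts that hold the stem-loop, 7 members had only ends within 60 bases of it, 16 had only longer ends, and 3 had both. Transcripts without the stem-loop were not classed by their end. In 27 members no annotated transcript held the element. H2BC12 is one of these, since its annotated model is 381 bases long and stops at the end of the coding frame, so the absence says nothing of its RNA. Other models run past the frame without a match, such as H3C6 (by up to 1908 bases) and H2AC11 (by 1827 bases). The search took only a perfect stem with the stated starts, so a stem-loop with other letters would be missed.

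Promoters are shown for the copy with the highest level (H2BC12), for the H2A copies H2AC6 and H2AC18 and for H4C15, the copy with the smallest p-value below. Each is the 250 bases before the start site in RefSeq (GRCh38.p14), read on the gene's strand, and where a histone gene had several listed starts the one nearest its deposited start was taken. Capitals mark, on either strand, TATAAA (the TATA box), CCAAT (bound by NF-Y) and ATTTGCAT (the octamer, bound by OCT1), and where TATAAA occurs on both strands at 1 place the 2 matches overlap. The positions are chr6:27146856-27147105 on the minus strand for H2BC12, chr6:26123922-26124171 on the plus strand for H2AC6, chr1:149842751-149843000 on the minus strand for H2AC18 and chr1:149861160-149861409 on the minus strand for H4C15.

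H2BC12: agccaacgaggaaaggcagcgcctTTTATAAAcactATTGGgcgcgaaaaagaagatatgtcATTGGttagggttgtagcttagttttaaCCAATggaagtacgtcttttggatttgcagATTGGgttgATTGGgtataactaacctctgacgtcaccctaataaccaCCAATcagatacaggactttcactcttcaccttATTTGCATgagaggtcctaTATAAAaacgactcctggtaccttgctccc
H2AC6: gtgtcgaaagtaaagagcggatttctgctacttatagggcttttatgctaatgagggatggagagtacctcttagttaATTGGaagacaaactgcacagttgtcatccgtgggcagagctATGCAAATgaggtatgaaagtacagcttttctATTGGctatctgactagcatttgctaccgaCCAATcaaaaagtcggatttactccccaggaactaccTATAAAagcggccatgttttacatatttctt
H2AC18: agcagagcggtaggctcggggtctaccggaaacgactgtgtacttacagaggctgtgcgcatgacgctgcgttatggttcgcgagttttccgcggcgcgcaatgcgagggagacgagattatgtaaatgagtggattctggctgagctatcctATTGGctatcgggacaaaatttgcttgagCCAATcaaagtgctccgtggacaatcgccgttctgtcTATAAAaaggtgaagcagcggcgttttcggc
H4C15: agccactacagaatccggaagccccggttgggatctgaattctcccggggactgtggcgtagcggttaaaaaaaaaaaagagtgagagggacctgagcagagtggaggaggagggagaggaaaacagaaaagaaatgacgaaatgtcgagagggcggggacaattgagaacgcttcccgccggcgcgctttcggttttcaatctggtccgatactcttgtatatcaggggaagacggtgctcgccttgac

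Of the 55 members, 50 were in the promoter table. TATAAA stood in 72.0% of them, against 11.1% of all 27305 promoters, CCAAT in 84.0% against 33.0%, and the octamer in 46.0% against 1.66%. The types differed in their letters. CCAAT was in every H2A, H2B and H3 promoter and in 2 of 10 H4 promoters. The octamer was in 10 of 13 H2A and 13 of 16 H2B promoters, and in none of 11 H3 or 10 H4 promoters. These promoters are not all separate intervals. Back-to-back partners can overlap in nearly all bases, as H2AC6 (chr6:26123922-26124171) does with H2BC4 (chr6:26123927-26124176). A match on either strand counted, so 1 site can enter all of these shares for both partners. H2BC12 had 6 CCAAT matches, H2AC6 had 3 and H4C15 had none, and the 250 bases of H4C15 were the same letters as those of H4C14. Such matches describe the letters only.

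Libraries held 60971105 to 73994619 counts. Over all 55 histone genes the counts summed to 9362, 8896 and 8809 (vector) and 11204, 10627 and 10483 (LOC401312), which is 0.0127% to 0.0160% of a library. RNAs that are made without a poly(A) tail, such as RN7SL1, RN7SK and RMRP, had a summed level of 4.96 to 8.70 CPM (counts scaled to a common library size) in vector and 4.79 to 9.36 CPM in LOC401312 over 30 entries. The labels call the molecule total RNA, and no source names a poly(A) selection or a ribosomal depletion. The part of the library type in the histone levels was not tested. Markers of other cells also moved between libraries. Of 7 tested trophoblast genes 6 passed the test as higher in LOC401312, carried by replicates 2 and 3, with a summed 1.02 to 1.81 CPM in vector and 1.62 to 89.7 CPM in LOC401312, GCM1 being at 0 in 5 of 6 libraries. Of 9 urothelial and squamous genes 4 passed as lower (26.5 to 28.1 against 15.8 to 18.2 CPM), with UPK3A and KRT14 at or near 0, and of 7 fibroblast and endothelial genes 2 passed as lower (39.8 to 63.2 against 21.4 to 23.5 CPM). Of 7 blood cell genes 2 were tested and CD68 passed as higher (0.41 on the log2 scale), the list summing to 31.4 to 48.3 CPM in vector and 42.4 to 48.0 CPM in LOC401312. HBB and PTPRC were highest in the first vector library, with 653 and 256 counts against at most 34 and 8 elsewhere. Of 9 tested A549 markers 2 passed as higher (CDH1, 0.48, and KRT19, 0.26) and 3 as lower (AKR1C1, -0.53, AKR1B10, -0.45, and ALDH1A1, -0.12), and their sum was 16438 to 17526 CPM in vector and 15771 to 16330 CPM in LOC401312, without overlap. Beside these marker counts, 4.13% of all tested features passed as higher and 4.58% as lower. The part of these markers in the histone values was not tested. KRT8 had 295445 to 363033 counts, while NKX2-1 and SFTPB, which mark lung epithelium, were at or near 0. Without the first vector library 0 of 36 tested histone genes were called, beside 9.87% of features in either direction. With LOC401312 replicate 1 alone against vector 0 of 43 were called, but that fit called 0.798% of all features, so its count of 0 says little. In bulk RNA, a different share of cells in S phase and a different amount of histone RNA per cell cannot be told apart.

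Most of the histone RNA counted came from few of the 55 copies. On the scale of FPKM, the deposited level per transcript length, H2BC12 had 51.0, 65.9 and 62.1 in vector and 81.4, 76.3 and 72.3 in LOC401312. That was 43.3% to 48.5% of the summed FPKM of all 55 members in every library, and 74.1% to 80.3% of that of the H2B genes. The annotated length behind FPKM weighs on this share: of the summed counts H2BC12 held 27.0% on average. The next levels were those of H2AC6, H2BC5, H2AC18 and H2AC19, each with a mean between 7.06 and 10.99 FPKM in either group. Then came H4C15, H4C9 and H4C14 at 3.58 to 5.13 FPKM and H2BC21 at 3.21. Ranked by mean FPKM over all 6 libraries, the 3 highest genes took 59.3% to 63.6% of a library's summed FPKM. The 10 highest by that rank took 83.7% to 86.8%. At the other end, 38 members had a mean under 1 FPKM, 17 had a 0 in some library, and H4C1 was at 0 in all 6. H3 genes were low as a type: their leading copies were H3C10 with 1.49 to 2.08 FPKM and H3C6 with 1.07 to 1.74 FPKM.

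**Figure D1:**
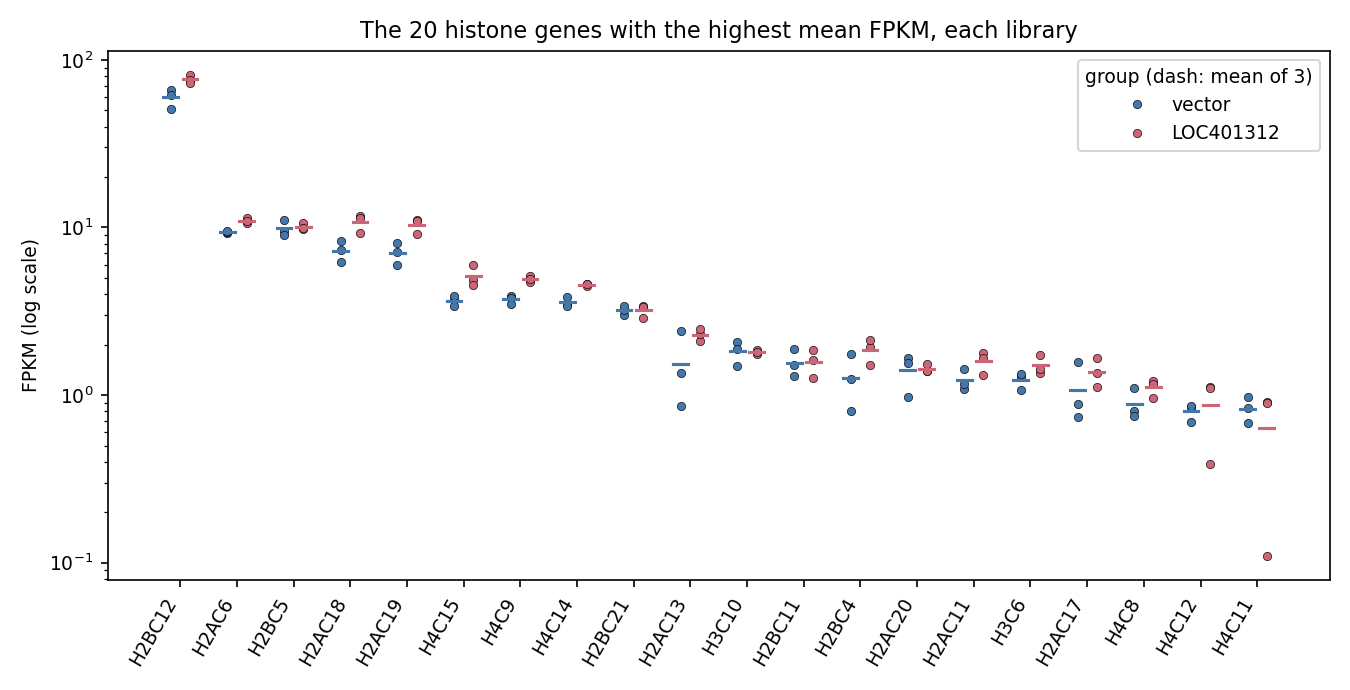
FPKM (vertical, log scale) of the 20 histone genes with the highest mean FPKM, in each vector (blue) and LOC401312 (red) library; dashes are means of 3. H2BC12, at 51.0 to 81.4 FPKM, stands apart from all other copies, and levels then decline steadily to below 1 FPKM.

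The main comparison asked whether any histone gene differed between LOC401312 and vector cells. None of the 34 members with enough counts to be tested passed, higher or lower, in edgeR's quasi-likelihood test with Benjamini-Hochberg adjustment over all 19620 tested features at 0.05. Of all features, 4.13% were called higher and 4.58% lower, so the histone count of 0 stands beside a background of 8.72% in either direction. At an unadjusted p under 0.05 there were 5 members, all of them higher in LOC401312 (H2AC18, H2AC19, H2BC12, H4C9 and H4C15), 14.7% of the 34, against 11.2% of all features called higher and 11.4% called lower by the same rule. DESeq2 called 0 members after adjustment and 5 before it. The median log2 difference of the 34 was 0.21, with 21 positive and 13 negative, and that of all features was -0.001, with 49.9% positive. The 34 genes are those with counts high enough to test and are not all members.

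**Figure D2:**
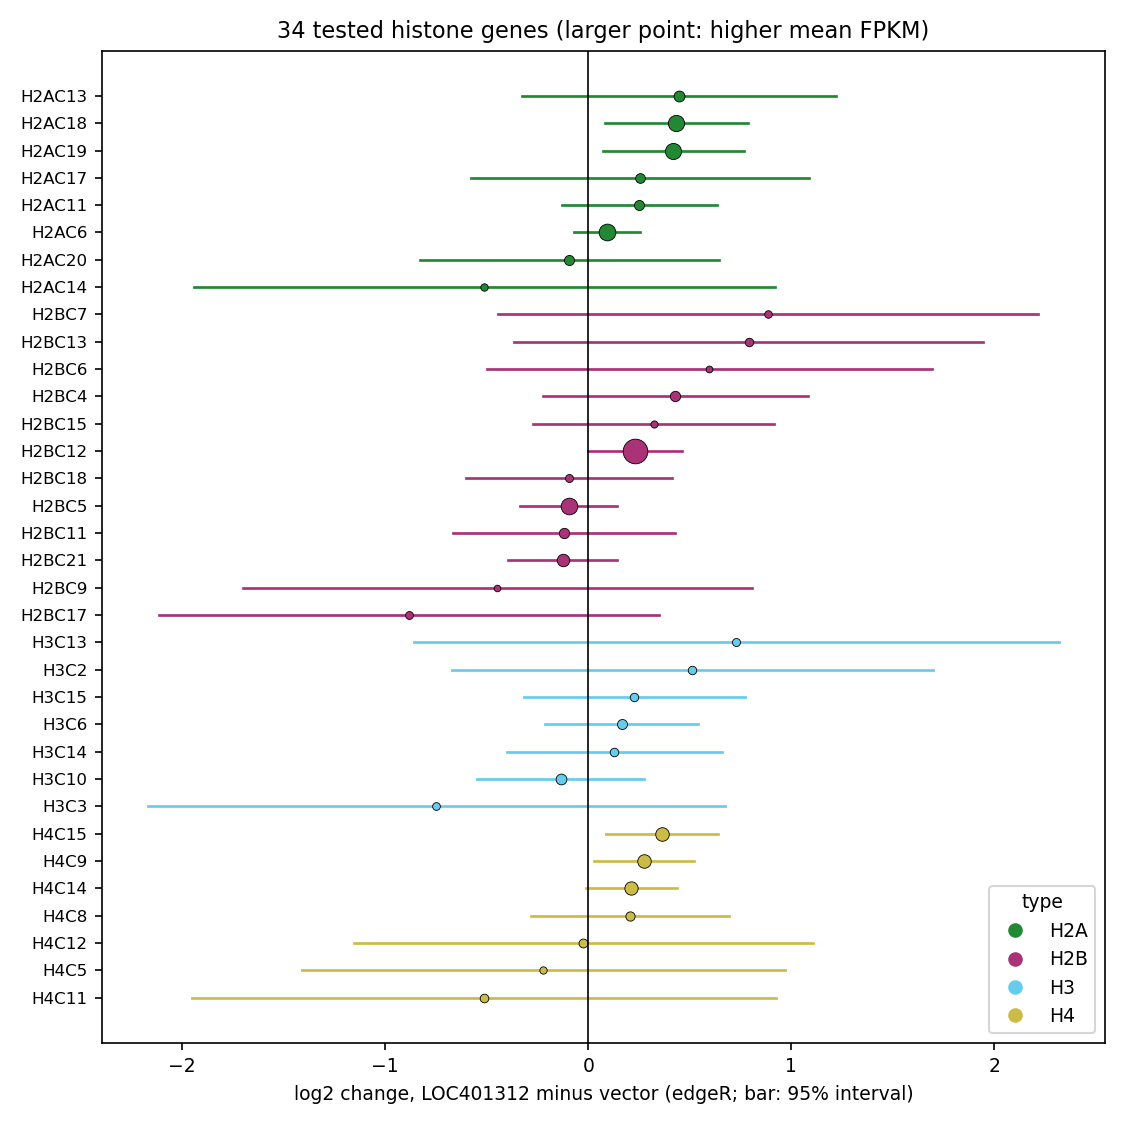
Log2 difference, LOC401312 minus vector, with 95% intervals from edgeR for the 34 tested histone genes, grouped by type and sized by mean FPKM. Intervals of H2AC18, H2AC19, H2BC12, H4C9 and H4C15 lie above 0 before adjustment, and none of the 34 passed after it.

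H2A genes encode the core histone that dimerises with H2B. Of 8 tested, 0 passed, 6 differences were positive and their median was 0.25. H2AC18 and H2AC19 are neighbours in 1q21 with the same coding letters. H2AC18 (chromosome 1, 149842188 to 149842736) had 4.08, 5.12 and 5.80 CPM in vector and 7.20, 7.18 and 5.87 CPM in LOC401312. The lowest LOC401312 library was just above the highest vector library, so the groups did not overlap. The log2 difference was 0.43 (SE 0.16, 95% interval 0.08 to 0.79, edgeR adjusted p = 0.128). H2AC19 had 4.05, 5.14 and 5.80 CPM against 7.03, 7.06 and 5.92 CPM, a log2 difference of 0.42 (SE 0.16, edgeR adjusted p = 0.137). The H2A copy with the highest level was H2AC6 (chromosome 6, 26124145 to 26139116), at 18.5, 20.04 and 20.4 CPM in vector and 21.2, 20.5 and 21.2 CPM in LOC401312. Its groups did not overlap either, and the log2 difference of 0.09 had an interval from -0.07 to 0.26 (edgeR adjusted p = 0.520), an upper bound of 1.19-fold.

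H2B is the partner of H2A in the nucleosome. Of 12 tested genes 0 passed, 6 differences were positive and 6 negative, and the median was 0.07. H2BC12 (chromosome 6, 27146361 to 27146855) had 30.1, 41.6 and 39.3 CPM in vector and 45.3, 43.4 and 41.3 CPM in LOC401312. The first vector library was low and the second lay within the LOC401312 range, so the groups overlapped. The log2 difference was 0.23 (SE 0.10, 95% interval 0.00083 to 0.46, edgeR adjusted p = 0.220), and without the first vector library it was 0.10 (adjusted p = 0.356). H2BC5 (chromosome 6, 26158146 to 26171349) had 9.90, 12.3 and 10.1 CPM against 10.4, 9.82 and 9.99 CPM, with a log2 difference of -0.10 (SE 0.11, edgeR adjusted p = 0.675). H2BC21, in 1q21, had 7.84, 8.999 and 9.56 CPM against 7.16, 8.57 and 8.46 CPM, with a log2 difference of -0.12 (SE 0.12, edgeR adjusted p = 0.615). In both genes the groups overlapped. H2BC17, the H2B gene with the second smallest p, had 17, 23 and 27 counts against 17, 12 and 10 counts and a log2 difference of -0.88 with an interval from -2.11 to 0.35.

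H3 and H4 form the tetramer at the centre of the nucleosome. Of 7 tested H3 genes 0 passed, 5 differences were positive and the median was 0.17. H3C10, the H3 gene with the highest level, had 3.07, 2.36 and 2.99 CPM in vector and 2.45, 2.64 and 2.58 CPM in LOC401312 (log2 difference -0.14, SE 0.18, edgeR adjusted p = 0.742). H3C6 had 3.45, 4.43 and 4.55 CPM against 4.10, 4.44 and 5.39 CPM (log2 difference 0.17, SE 0.17, edgeR adjusted p = 0.641). Their groups overlapped as well. H3C3 and H3C13 had the smallest p among H3 genes and rested on 2 to 32 counts a library, with intervals from -2.17 to 0.68 and from -0.86 to 2.32.

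Of 7 tested H4 genes 0 passed, 4 differences were positive and the median was 0.21. H4C15 (chromosome 1, 149854045 to 149861148) had 8.48, 9.58 and 8.37 CPM in vector and 10.5, 10.1 and 13.4 CPM in LOC401312. All LOC401312 libraries lay above all vector libraries, with replicate 3 well above the other 2. Its log2 difference of 0.36 (SE 0.12, 95% interval 0.09 to 0.64) had the smallest adjusted p of any member, 0.110 by edgeR. H4C9, in 6p22, had 6.01, 6.26 and 5.80 CPM against 6.92, 7.62 and 7.34 CPM, a log2 difference of 0.28 (SE 0.11, edgeR adjusted p = 0.168). H4C14 had 7.88, 9.22 and 8.19 CPM against 9.68, 9.67 and 9.93 CPM, a log2 difference of 0.21 (SE 0.10, edgeR adjusted p = 0.251). Their groups did not overlap either. In all, 6 of the 34 members had all LOC401312 libraries above all vector libraries, 3 H2A genes (H2AC6, H2AC18, H2AC19) and 3 H4 genes (H4C9, H4C14, H4C15), and 0 had them all below. Of all features 14.0% lay above and 13.9% below in that way. An exact permutation test of 3 libraries against 3 cannot give a p under 0.10.

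**Figure D3:**
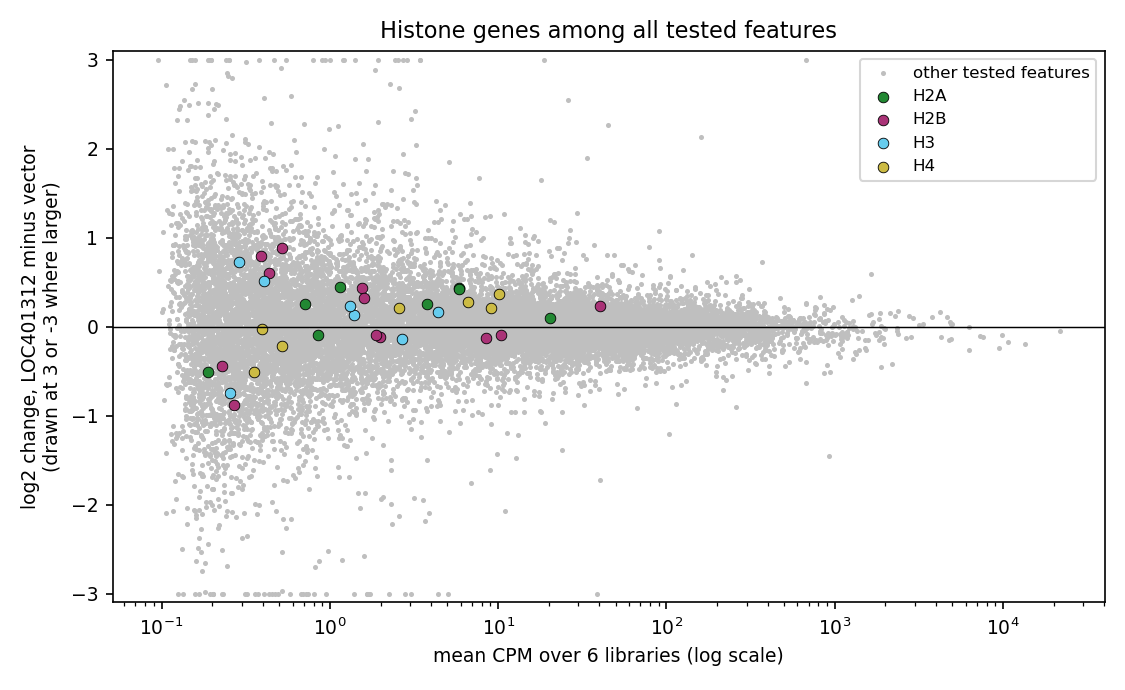
Log2 difference, LOC401312 minus vector, against mean CPM (log scale) for all tested features (grey) and the 34 tested histone genes (coloured by type). The histone genes lie within the spread of the other features at every level.

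Several of these rows are not independent measurements. In 8 of 50 members with a coding frame to compare, another member had exactly the same coding letters: H2AC18 with H2AC19, H3C14 with H3C15, H4C14 with H4C15 and H4C11 with H4C12. The counts divided almost evenly within 3 of those pairs, H2AC18 holding 49.8% to 50.6% of its pair, H3C14 49.1% to 52.7% and H4C14 42.6% to 49.5%. No source used here says how reads that match both copies were assigned, so the split between copies is uncertain, and 4 of the 6 genes without overlap come from 2 pairs. With each pair summed to 1 entry, the log2 difference was 0.43 (SE 0.14, edgeR adjusted p = 0.0868) for H2AC18 with H2AC19 and 0.29 (SE 0.09, adjusted p = 0.0853) for H4C14 with H4C15. For H3C14 with H3C15 it was 0.18 (SE 0.19, adjusted p = 0.649), and for H4C11 with H4C12, at 4 to 35 counts a library and gene, -0.25 (SE 0.47, adjusted p = 0.823). None of the sums passed. H4C14 also overlaps H3C14, and H4C15 overlaps H3C15, by 230 bases on opposite strands, and no source used here states a strand setting, so reads there cannot be told apart. On the same strand, H2AC16 overlaps H2BC15 by 482 bases and H2AC17 overlaps H3C12 by 408 bases, so the counts of these 4 genes are uncertain too.

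Added together, the 55 genes had 126.1, 148.8 and 143.2 CPM in vector and 158.8, 155.7 and 157.0 CPM in LOC401312, 139 ± 11.9 against 157 ± 1.55 (SD, n = 3 each). The groups did not overlap and the ratio of means was 1.13. No test was made of this sum. Without H2BC12 the ratio was 1.11, and with 1 library left out at a time it was between 1.08, without the first vector library, and 1.17. By type, the H2A sum was 34.1, 36.0 and 38.2 CPM in vector and 43.3, 41.4 and 41.1 CPM in LOC401312, and the H4 sum was 25.6, 29.8 and 26.7 against 31.4, 32.0 and 34.2 CPM, both without overlap. The H2B sum was 56.5, 72.1 and 66.8 against 72.6, 71.4 and 69.4 CPM and the H3 sum 9.92, 10.9 and 11.5 against 11.6, 10.9 and 12.3 CPM, both with overlap. By position the ratio was 1.16 for 1q21, 1.06 for distal 6p22 and 1.15 for proximal 6p22. The tested features of chromosomes 1 and 6 as wholes had median log2 differences of -0.004 and -0.0002.

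The deposited FPKM columns gave a larger difference than the counts. Summed FPKM was 118, 136 and 131 in vector and 169, 160 and 155 in LOC401312, a ratio of 1.26, and all 4 types lay without overlap. Across the features with a mean of at least 5 FPKM, the deposited values of LOC401312 sat 0.11 log2 units above those of vector at the median, so the whole scale differs between groups by that amount. With limma on log2(FPKM + 0.1), which tested 41 members, 7 were called higher (H2AC6, H2AC18, H2AC19, H2BC12, H4C9, H4C14 and H4C15), against 8.36% of features called higher in that fit. After the libraries' medians were aligned, 1 of 41 was past the threshold, H4C9, at 0.29 (adjusted p = 0.0362), against 3.03% of features called higher in that fit.

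**Figure D4:**
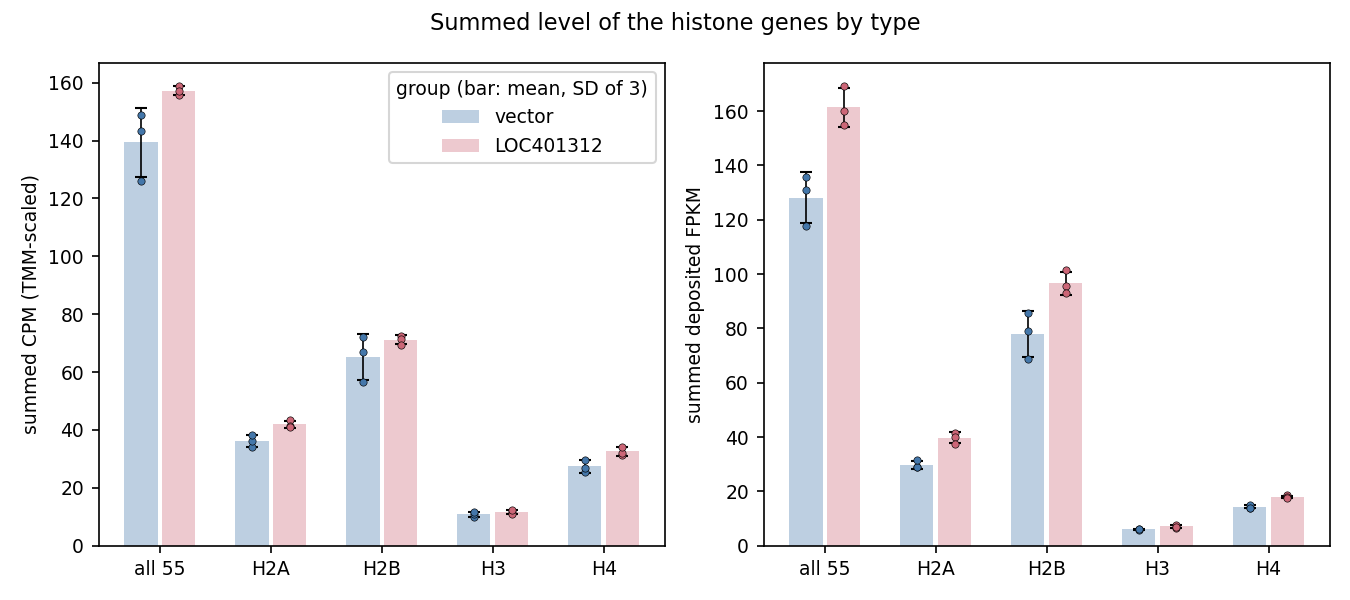
Summed level of all 55 histone genes and of each type in CPM (left) and deposited FPKM (right); bars are means, error bars SD and points the 3 libraries of each group. In CPM the H2A and H4 sums are without overlap and the H2B and H3 sums overlap; in FPKM all are without overlap.

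Back-to-back pairs share a short interval between 2 start sites, and the levels of their members ranged from similar to far apart. There were 10 such pairs with start sites at most 1000 bases apart, holding 19 members, with gaps of 219 to 319 bases. H2BC17 was paired with H2AC17 (240 bases) and also with H3C12 (319 bases). H3C12 overlaps H2AC17 by 408 bases on the same strand, so the interval of that last pair is not free of genes. H2BC12 and H2AC12 start 251 bases apart on chromosome 6: H2BC12 had 2235 to 3198 counts a library and H2AC12 had 0 to 8, a ratio of mean FPKM of 553. The promoter of H2BC12 printed above covers nearly all of that interval. H2AC6 and H2BC4, 219 bases apart, stood at 10.2 and 1.56 mean FPKM, and here the H2A gene was the higher. H2BC21 and H2AC20, 266 bases apart, stood at 3.21 and 1.42 mean FPKM, with 505 to 588 counts against 43 to 63. H2BC11 and H2AC11, 292 bases apart, stood at 1.57 and 1.41 mean FPKM, with 107 to 154 counts against 186 to 319, so here the order differs between the scales. FPKM rests on the annotated length, which differs between copies, and neither type was always the higher.

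**Figure D5:**
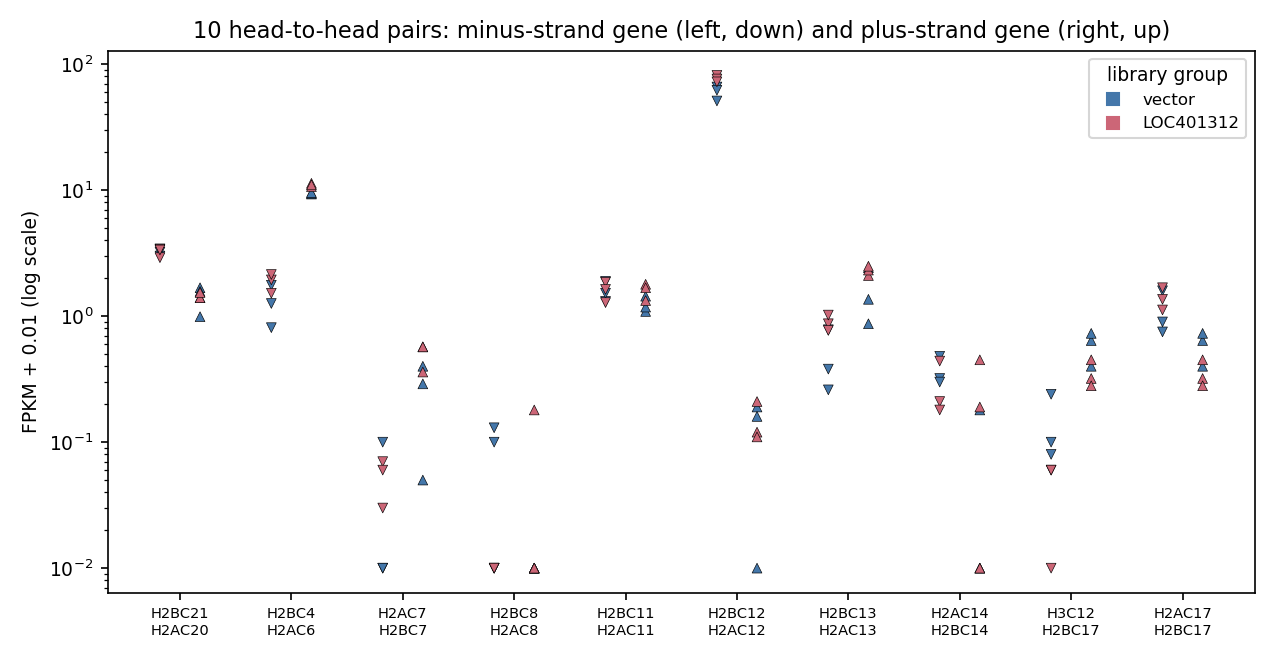
FPKM plus 0.01 (log scale) of both genes of the 10 head-to-head pairs in each library, minus-strand gene left and plus-strand gene right, vector blue and LOC401312 red. H2BC12 and H2AC12 are the pair furthest apart, and H2BC11 and H2AC11 lie at similar levels.

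The 21 members that could not be tested had at most 33 counts in any library. Some were counted in 1 group alone. H3C1 with 1, 5 and 8 counts, H2BC8 with 13, 14 and 0, H4C2 with 0, 10 and 5 and H2BC3 with 0, 3 and 3 were counted in vector and were at 0 in all LOC401312 libraries. H2AC8 (0, 7 and 0) and H4C13 (3, 0 and 0) were counted in LOC401312 and were at 0 in all vector libraries. These genes were singled out after their values were seen. In an edgeR fit over every feature with a count, which tested 54 members, none passed, and the smallest adjusted p of these 21 was 0.241, for H2BC8. H3C12 was lower without overlap in CPM, at 6, 7 and 16 counts in vector against 4, 0 and 3 in LOC401312. H3C8 went the other way, at 8, 3 and 4 counts against 11, 8 and 33. Both were likewise picked after their values were seen. Differences of such genes were not detectable at this depth.

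The factors that make, process and use these messages were taken from fixed lists. SLBP, which binds the stem-loop, had 54.7 ± 3.39 CPM in vector and 56.9 ± 3.51 CPM in LOC401312 (log2 difference 0.06, SE 0.06, edgeR adjusted p = 0.660). ZNF473 (-0.06), CASP8AP2 (0.06), LSM10 (-0.07) and LSM11 (0.09), which act with the U7 particle, and the decay nuclease ERI1 (-0.08) did not pass either, log2 differences standing in parentheses. In the list of 3′ end processing and decay 0 of 27 tested genes were higher and 2 lower, beside the background of 8.72% in either direction. These were the cleavage endonuclease CPSF3 (-0.30, SE 0.04, adjusted p = 0.00296) and the Sm protein SNRPG (-0.45, SE 0.07, adjusted p = 0.00318). Both genes lie on chromosome 2, whose 780 features of at least 4 CPM had a median log2 difference of -0.23. With each chromosome's median removed, in a limma fit on log2 CPM, the differences were -0.07 and -0.22. Neither passed there (limma adjusted p = 0.433 and 0.0923), and that fit changed the test as well as the scale.

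Of 14 tested genes of histone transcription, 0 passed, beside the background of 8.72% in either direction. NPAT, the coactivator of histone promoters, had 16.2 ± 2.03 CPM against 18.7 ± 2.28 CPM (log2 difference 0.21, edgeR adjusted p = 0.338), CCNE2, a cyclin E, a difference of 0.24 (adjusted p = 0.447) and HINFP, which binds H4 promoters, 0.03. In the list of S phase and DNA replication, 1 of 34 was higher and 2 lower, a share near the background of 8.72%. The helicase subunit MCM6 (-0.28) and the ribonucleotide reductase subunit RRM2 (-0.17) fell and the polymerase POLE (0.19) rose. MCM6 and RRM2 lie on chromosome 2 and POLE on chromosome 12, whose median was 0.12. None of them passed in the limma fit with chromosome medians removed. RRM2 and POLE also missed the threshold without single libraries (5 of 6 and 4 of 6 such fits). Of 12 tested genes of cell cycle exit 1 passed, a share near the background of 8.72%. It was CCND3, a cyclin of G1, which fell by 0.55 on the log2 scale (edgeR adjusted p = 0.000228).

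CENPA, the histone H3 variant of centromeres, had 1871, 1517 and 1681 counts in vector and 1130, 1300 and 1220 counts in LOC401312, without overlap, and fell by 0.55 on the log2 scale (SE 0.08, edgeR adjusted p = 0.00328). CENPA lies on chromosome 2, and with chromosome medians removed the difference was -0.32 (limma adjusted p = 0.0419). Of 27 chaperones and assembly factors 4 passed, beside the background of 8.72%. ATRX rose (0.23, adjusted p = 0.0180), and 3 fell: HJURP, the chaperone of CENPA (-0.61, adjusted p = 6.80e-05), the acetyltransferase of new H4, HAT1 (-0.47, adjusted p = 0.000395), and SET (-0.13, adjusted p = 0.0397). HJURP and HAT1 lie on chromosome 2, and with the medians removed their differences were -0.38 and -0.24 (limma adjusted p = 0.000561 and 0.0162). SET was at -0.04 in that fit (limma adjusted p = 0.496). ATRX and SET missed the threshold in 4 and in all 6 of the fits that left out 1 library. Among the RNAs made without a tail 0 of 8 tested passed, RMRP (log2 difference -1.21, adjusted p = 0.306) and SNORA73B (0.74, adjusted p = 0.326) having the smallest p. Of 6 linker H1 genes of the clusters 2 were tested and 0 passed. Their log2 differences were -0.74 and 0.09, and in CPM the groups overlapped in both genes. H1-2 had 885 to 1030 counts in vector and 1037 to 1098 in LOC401312, not scaled for library size.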

How the data were processed

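The authors deposited 1 table of raw counts per feature and library, with FPKM values (a level scaled for transcript length and library total). The column headers name counts and FPKM and do not say how the FPKM values were made. The build was GRCh38 (hg38) and reads were handled with cutadapt 1.9 and FastQC, per the submitters' processing notes. No source used here names the aligner, the counter, the annotation release or the strand setting. Samples were grouped by title. Counts were tested with edgeR 4.0.16 (R 4.3.3; TMM scaling, filterByExpr, quasi-likelihood test, Benjamini-Hochberg over all 19620 tested features, threshold 0.05), checked on simulated counts. Adjusted p-values are from edgeR unless named, and all values with chromosome medians removed are from limma on log2 CPM. CPM uses the TMM-adjusted library sizes, and the SE of edgeR is the difference divided by the square root of F. Alternatives used DESeq2 1.42.0 and limma 3.58.1. Members are rows picked by description. The genes named were every member past the threshold, the 2 with the highest mean FPKM and the 2 with the smallest p per type, those above 5 FPKM, 8 fixed factors, and per list up to 5 past the threshold or the 2 with the smallest p; others were chosen after their values were seen. Members, lists and rules were chosen with earlier results of these data known. Within groups, no 2 libraries matched within counting noise (chi-square divided by its degrees of freedom was at least 13.96). Each was treated as 1 replicate, although the check cannot tell separate cultures from separate preparations of 1 culture. Sequences come from GENCODE 29 transcripts and from RefSeq promoters (GRCh38.p14). A result among the histone variants is not reported here.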

Additional observations from a re-analysis of the deposited data

How the results depend on the processing

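Of 811 features called higher and 899 lower, DESeq2 called 1246 higher, the first LOC401312 library alone against vector 84 and 91, removal of chromosome medians 554 lower, every feature with a count 577 lower, and limma on log2 FPKM with a pseudocount of 0.1, 1 or 0.01 gave 1599, 1584 and 1573 higher and 308, 303 and 297 lower. Leaving out 1 library gave 393 to 963 higher and 439 to 1042 lower. The replicate number as a block gave 509 and 579. Same-numbered libraries did not deviate together (r = -0.07, -0.01 and -0.02). With so few libraries this cannot show whether they share a culture or a batch. Histone members called stayed at 0 in each edgeR and DESeq2 fit run and with chromosome medians removed, the block and every left-out library included, and were 7, 6 and 6 by limma on FPKM with pseudocounts of 0.1, 1 and 0.01 and 1 with medians aligned. The summed ratio of 1.13 was 1.26 on FPKM and 1.08 to 1.17 with a library left out; the H2BC12 share of 47.0% of FPKM was 27.0% of counts, and 46.6% to 47.7% with a library left out.

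Signs that turned were those of small log2 differences, none past the threshold under the setting named. With the first LOC401312 library alone they were H3C6 (-0.013), SLBP (-0.042), LSM10 (0.098) and LSM11 (-0.0070), and with chromosome medians removed RRM2 (0.062). On log2 FPKM with pseudocounts of 0.1, 1 and 0.01 they were H2BC5 0.036, 0.032 and 0.036, H2BC21 0.00011, 0.00033 and 7.4e-05, ZNF473 0.065, 0.047 and 0.067, LSM10 0.053, 0.0496 and 0.054 and ERI1 0.044, 0.039 and 0.045. With 1 library left out, H2BC5 ranged from -0.15 to 0.011, HINFP from -0.063 to 0.14, CASP8AP2 from -0.0597 to 0.22 and LSM10 from -0.17 to 0.0088. Of the other values of single genes 626 kept their direction and side of the threshold, 53 lost a call and 25 gained one. The cause was not tested. Near-identical copies summed, the robust fit and the H2BC12 share of counts were added after the data were seen. With at most 33 counts in 21 of 55 members, a fold difference of those could not be measured.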
